A study of Mus musculus with 24 samples.

Results

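Immediate early genes are switched on within minutes of a stimulus, without the need for new protein synthesis. The list examined here, taken by gene symbol from the deposited table, comprised *Fos*, *Fosb*, *Junb*, *Egr1*, *Arc*, *Nr4a1*, *Npas4*, *Dusp1*, *Ier2* and *Btg2*. All 10 were found among the 13998 genes of the table, and all 10 passed the minimum mean normalized count of 5. In neurons, synaptic input and calcium entry activate kinases that phosphorylate CREB and the ternary complex factors bound with SRF, and these drive transcription of the early genes. Their products are transcription factors, synaptic proteins and feedback inhibitors, and their RNA is short-lived. In the hypothalamus, induction of *Fos* is widely used to mark neurons that responded to fasting, feeding or stress.

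Expression was measured in the dissected hypothalamus of 24 male F_2_ mice by SAGE-Seq, in which each transcript is counted by a short 3′ tag. The mice were non-recombinant offspring of a subcongenic strain carrying a CAST/EiJ segment of Chr 17 on a C57BL/6J background. There were 12 mice homozygous for the segment (*cast/cast*) and 12 with C57BL/6J alleles there (*b6/b6*), and all were *b6/b6* elsewhere in the genome. All were adults that had chosen between a carbohydrate/protein (C/P) and a fat/protein diet for 10 d and had then returned to chow, and tissue was taken about 48 h after the choice diets were restored, following a short fast. The authors chose mice that diverged most in carbohydrate and total kcal intake. These were *cast/cast* mice from the highest and *b6/b6* mice from the lowest 25% of carbohydrate intake. Genotype and C/P intake therefore cannot be told apart between the groups. C/P intake ranged from 77.8 to 106.6 kcal in the *cast/cast* group and from 27.4 to 41.0 kcal in *b6/b6* mice. Total kcal had a median of 121.45 in the *cast/cast* group and 106.5 in *b6/b6* mice, so as a covariate it is not independent of genotype. The study numbers of the mice also differed, with a median of 120.5 in the *cast/cast* group and 269.5 in *b6/b6* mice. Each mouse gave 1 library, of 7754202 to 13082873 tag hits.

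The tissue label was checked against markers. Of 20 hypothalamic markers 17 were in the table, and their summed level had a median of 20014 normalized counts in the *cast/cast* group and 17825 in *b6/b6* mice. This sum ranged from 7586 to 38510 in *cast/cast* and from 14295 to 31491 in *b6/b6* mice. *Pmch*, which encodes melanin-concentrating hormone, was the most abundant of the hypothalamic markers, with a mean of 8130. Some of the others varied widely between libraries, such as *Agrp* from 15.1 to 3686 and *Hcrt* from 20.2 to 4102. *Sim1* varied less, from 103 to 323, and some were low, such as *Kiss1* with a mean of 13.7. The part of dissection in this spread was not tested. Of the 8 thalamic markers, *Slc17a6* and *Calb2* were the most abundant, with means of 5519 and 2541, and both are also expressed by hypothalamic neurons. The other thalamic markers had means of 830 (*Rgs16*), 155 (*Tcf7l2*), 147 (*Prkcd*), 66.3 (*Ntng1*), 22.8 (*Tnnt1*) and 14.2 (*Lef1*), with single libraries as high as 533 for *Tcf7l2*, 541 for *Prkcd* and 138 for *Tnnt1*. The part of thalamic tissue in these levels was not tested. Summed markers of cortex and hippocampus had medians of 5067 (*cast/cast*) and 4263 (*b6/b6*), mostly from *Nrgn* (mean 4593). Those of striatum had medians of 4597 and 4079, and those of choroid plexus 974 and 951. Between libraries *Slc17a7*, a cortical marker, ranged from 0 to 156 and *Kcnj13*, of choroid plexus, from 0 to 419. The part of these tissues was not tested either. The sum of pituitary markers ranged from 0 to 349 normalized counts in *cast/cast* mice (median 45.3) and from 0 to 472 in *b6/b6* mice (median 98.2). Erythrocyte markers, of which 3 of 8 were in the table, had the median log2 fold change farthest from 0 among the marker lists, -0.92, with 0 of 3 called and the lowest *P* for *Alas2* (*P* = 0.0456, adjusted *P* = 0.608 in limma). Their sum ranged from 105 to 782 in *cast/cast* mice (median 255) and from 121 to 4999 in *b6/b6* mice (median 527), with *Hba-a1* the most abundant at a mean of 333. The part of these markers in the fold changes between genotypes was not tested.

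Several libraries stood apart from the rest across the whole table. In 11633 genes outside the list and the segment, centred within genotype, the first principal component held 38.2% and the second 18.5% of the variance. The first followed the library total of normalized counts (*r* = 0.89 over 24 mice). On this component *cast/cast* mice 4, 5, 6 and 8 and *b6/b6* mice 1 and 4 scored above 1, and on the second *b6/b6* mice 6 and 12 scored above 2. Fold changes of the 10 genes are therefore given with all libraries and without these 8, an omission chosen after the data were seen and applied to both genotypes by the same limits. The mice were chosen on components that several of the genes follow, so the omission took different parts of the range from each genotype. For *Arc* it removed the 4 lowest *cast/cast* mice, but the 2 lowest *b6/b6* mice and 2 from the upper part of the *b6/b6* range. For *Junb*, *Egr1*, *Arc*, *Dusp1*, *Ier2*, *Fosb* and *Btg2*, which had an absolute *r* of 0.60 or more with a component, genotype and the choice of mice cannot be told apart in a fold change without the 8 libraries. Its unadjusted *P* is printed for each gene but is no test of genotype for these 7. For the other genes the omission was not neutral either, so its *P* is no clean test for them. It took 3 of the 4 highest *cast/cast* and 2 of the 4 highest *b6/b6* mice for *Npas4*. For *Nr4a1* it took 2 of the 4 highest *cast/cast* mice, and for *Fos* 2 of the 4 highest *b6/b6* mice.

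No immediate early gene met the criteria for a difference between genotypes. The criteria were an unadjusted *P* of at most 0.01 in limma on log2(normalized count + 1) together with mean normalized counts that differed at least 1.5-fold. They were met by 0 of the 10 genes and by 1.49% of the 13998 genes tested, and the edgeR and DESeq2 tests on recovered tag hits also called 0 of the 10. An unadjusted *P* of at most 0.05 was reached by 2 of the 10, *Fosb* and *Btg2*, and by 8.13% of all genes. This count depended on the scaling, the test, the covariates and the mice kept. It was 0 with libraries rescaled to the same total (*Fosb* *P* = 0.0725, *Btg2* *P* = 0.111) and 1, *Fosb*, in both edgeR and DESeq2. With study number as a covariate in limma *Fosb* reached it (*P* = 0.0102) but *Btg2* did not (*P* = 0.073). With total kcal neither did (*P* = 0.131 and 0.187). Without the 8 libraries *Fosb*, *Junb*, *Egr1* and *Arc* reached it, in a fit that is no test of genotype for them. The genotypes overlapped in each of the 10 genes, whereas 0.336% of all genes showed no overlap. The median log2 fold change, *cast/cast* over *b6/b6*, was 0.14 for the list and -0.02 for all genes tested. In whole tissue, fewer cells expressing a gene and less RNA per cell cannot be told apart.

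**Figure D1:**
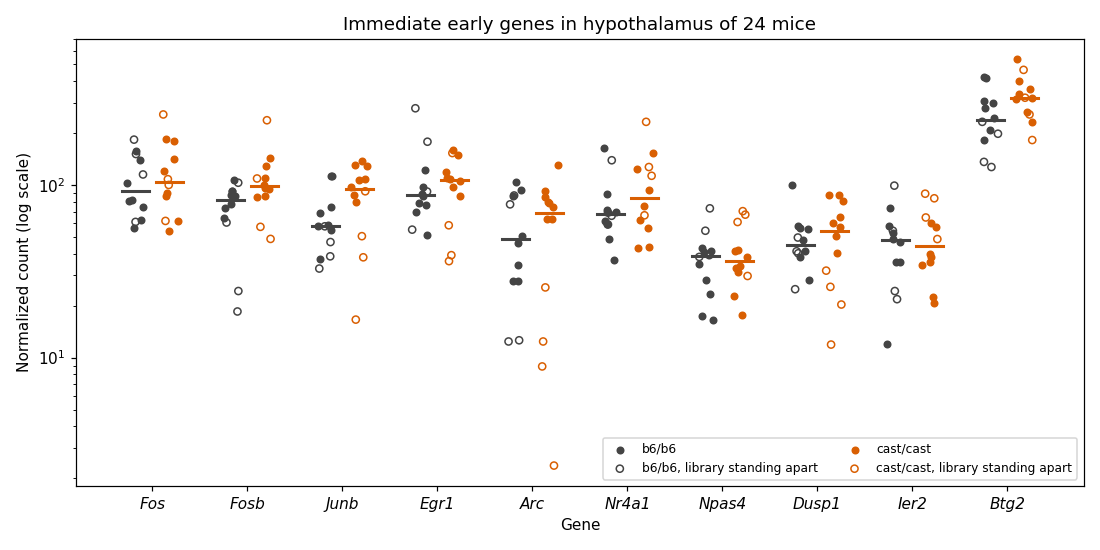
Normalized counts (log axis) of the 10 immediate early genes in each mouse, with *b6/b6* in grey and *cast/cast* in orange. Each point is a mouse, bars are medians of 12 mice, and open circles are the 8 libraries that stood apart. The genotypes overlap for every gene, and *Arc* has the widest range, from 2.37 to 130.

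The AP-1 factors were considered first. *Fos*, which pairs with Jun proteins to form AP-1, had 53.8, 104 and 256 normalized counts (lowest, median and highest) in the *cast/cast* group and 56.4, 92.4 and 183 in *b6/b6* mice. The groups overlapped, the lower ends were close, the highest mouse was *cast/cast*, and 7 of 12 *cast/cast* mice lay above the *b6/b6* median. The log2 fold change was 0.14 (SE 0.25, 95% interval -0.37 to 0.66, adjusted *P* = 0.881 in limma), and 0.24 (*P* = 0.395) without the 8 libraries.

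*Fosb*, a Fos-family partner whose truncated product accumulates with repeated stimulation, had 48.7, 98.0 and 237 normalized counts in the *cast/cast* group and 18.5, 82.0 and 107 in *b6/b6* mice. The lowest values were those of *b6/b6* mice 12 and 6, at 18.5 and 24.3, and 10 of 12 *cast/cast* mice lay above the *b6/b6* median. The log2 fold change was 0.58 (SE 0.27, *P* = 0.0418, adjusted *P* = 0.607 in limma). With study number as a covariate it was 0.72 (*P* = 0.0102), and with total kcal 0.54 (*P* = 0.131). Without *b6/b6* mice 6 and 12 it was 0.26 (*P* = 0.204), and without the 8 libraries 0.30 (*P* = 0.0497), an omission that took the same 2 lowest mice.

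*Junb*, the AP-1 partner that often restrains c-Jun, had 16.6, 94.5 and 137 normalized counts in the *cast/cast* group and 32.8, 57.8 and 113 in *b6/b6* mice. The lowest mouse of all was *cast/cast*, yet 9 of 12 *cast/cast* mice lay above the *b6/b6* median. The log2 fold change was 0.42 (SE 0.29, *P* = 0.154, adjusted *P* = 0.675 in limma). With total kcal as a covariate it was 0.16 (*P* = 0.657), and without *b6/b6* mice 6 and 12 it was 0.39 (*P* = 0.222). Without the 8 libraries, which had included 3 of the 4 lowest mice of each genotype, it was 0.65 (*P* = 0.00495, adjusted *P* = 0.119 over all genes). This met the criteria, as did 511 genes in that fit compared to 208 with all libraries. It also met them without *cast/cast* mice 4, 5, 6 and 8 alone (0.87, *P* = 0.000531, adjusted *P* = 0.04) and without these and *b6/b6* mice 6 and 12 (0.84, *P* = 0.00123, adjusted *P* = 0.0393). These 2 fits removed 3 of the 4 lowest *cast/cast* mice but kept *b6/b6* mice 1 and 4 of like scores, at 32.8 and 38.6. They favour a higher *Junb* in *cast/cast* mice by construction, so their *P* values are no test of genotype.

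Of the other transcription factors, *Egr1*, a zinc finger protein, had 36.2, 107 and 159 normalized counts in the *cast/cast* group and 51.5, 87.2 and 278 in *b6/b6* mice. The highest value was that of *b6/b6* mouse 12, and the log2 fold change was -0.03 (SE 0.27, adjusted *P* = 0.981 in limma). It was 0.48 (*P* = 0.0104) without the 8 libraries, which had included the 2 highest *b6/b6* and the 3 lowest *cast/cast* mice. *Nr4a1*, an orphan nuclear receptor, had 43.0, 84.5 and 232 normalized counts in the *cast/cast* group and 36.9, 67.7 and 163 in *b6/b6* mice. Its groups overlapped, with a log2 fold change of 0.28 (SE 0.26, adjusted *P* = 0.756 in limma), and 0.11 (*P* = 0.715) without the 8 libraries. *Npas4*, a neuron-restricted factor induced by calcium entry, was the least abundant of the 10, with 17.6, 36.2 and 70.5 normalized counts in the *cast/cast* group and 16.6, 38.7 and 73.2 in *b6/b6* mice. These ranges nearly coincided, and the log2 fold change was 0.12 (SE 0.25, adjusted *P* = 0.897 in limma), and 0.11 (*P* = 0.645) without the 8 libraries.

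*Arc*, which regulates AMPA receptor trafficking at synapses, varied more than any other gene of the list. It had 2.37, 69.0 and 130 normalized counts in the *cast/cast* group and 12.4, 48.5 and 104 in *b6/b6* mice. The lowest mice were *cast/cast* 6 and 4 and, close together, *cast/cast* 8, *b6/b6* 1 and *b6/b6* 4, all among the libraries that stood apart. The log2 fold change was -0.14 with a wide 95% interval of -1.19 to 0.92 (adjusted *P* = 0.951 in limma), and its sign turned in edgeR (0.11) and in DESeq2 (0.12). With total kcal as a covariate in limma it was -0.75 (*P* = 0.242), and with study number -0.32 (*P* = 0.547). It was 0.63 (*P* = 0.0309) without the 8 libraries, which had included the 4 lowest *cast/cast* and the 2 lowest *b6/b6* mice. The SD of *Arc* within genotype was 1.37 on the log2 scale, above that of 98.4% of 11995 genes with a mean of at least 20, for which the median SD was 0.53.

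The remaining genes encode feedback and growth regulators. *Dusp1*, a phosphatase that inactivates MAP kinases, lies at chr17:26505591-26508472 (GRCm38) and was the only gene of the list inside the CAST segment. Of 412 genes tested there 24.8% met the criteria, but *Dusp1* did not. It had 11.9, 53.9 and 87.9 normalized counts in the *cast/cast* group and 24.9, 44.7 and 100 in *b6/b6* mice, and the ranges overlapped. The log2 fold change was -0.04 (95% interval -0.62 to 0.55, adjusted *P* = 0.981 in limma), and its sign turned in edgeR and DESeq2 (0.09 in each). It was 0.35 (*P* = 0.135) without the 8 libraries, which had included the 4 lowest *cast/cast* mice and 2 of the 4 lowest *b6/b6* mice.

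*Ier2*, a small nuclear protein, had 20.7, 44.1 and 89.0 normalized counts in the *cast/cast* group and 12.0, 47.7 and 99.1 in *b6/b6* mice. The medians were close and 6 of 12 *cast/cast* mice exceeded the *b6/b6* median, with a log2 fold change of 0.13 (SE 0.29, adjusted *P* = 0.907 in limma) that turned to -0.17 (*P* = 0.575) without the 8 libraries, which had included 3 of the 4 highest *cast/cast* mice. *Btg2*, an antiproliferative regulator of mRNA deadenylation, was the most abundant of the list and had 182, 319 and 535 normalized counts in the *cast/cast* group and 127, 238 and 422 in *b6/b6* mice. Although 10 of 12 *cast/cast* mice lay above the *b6/b6* median, the log2 fold change of 0.42 (SE 0.20, *P* = 0.0426, adjusted *P* = 0.607 in limma) did not meet the criteria. It was 0.24 (*P* = 0.212) without the 8 libraries, which had included 3 of the 4 lowest *b6/b6* and 2 of the 4 lowest *cast/cast* mice.

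Tag counting alone would give a coefficient of variation of 10.3% for *Fos* and 6.18% for *Btg2*. *Arc* had the least certain low values, since its lowest library held 2 tag hits. Apart from *Arc*, the within-genotype SD of the genes lay between 0.49 and 0.74 on the log2 scale, and 8 of these 9 lay above the median of 0.53 for genes with a mean of at least 20, at percentiles of 60.9 (*Npas4*) to 77.2 (*Ier2*). *Btg2* was below it.

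Other genes of the same response were examined by list. Of 20 further immediate early transcription factors 13 were tested and 0 met the criteria, with a median log2 fold change of -0.09. The most abundant were *Jund*, *Jun* and *Klf6*, and *Jun* had a median of 909 normalized counts in the *cast/cast* group and 775 in *b6/b6* mice (log2 fold change 0.37, adjusted *P* = 0.543 in limma). The log2 fold change was -0.30 for *Jund* (adjusted *P* = 0.722 in limma) and -0.52 for *Klf6* (adjusted *P* = 0.681). Of 29 tested early effectors and inhibitors, 1 was lower in *cast/cast* mice. This was *Sik1*, a salt-inducible kinase that restrains CREB coactivators, with 16.1, 36.8 and 56.4 normalized counts in the *cast/cast* group and 34.6, 52.1 and 90.7 in *b6/b6* mice. The groups overlapped, and the log2 fold change was -0.60 (*P* = 0.00511, adjusted *P* = 0.385 in limma). The call ended with total kcal as a covariate (-0.27, *P* = 0.252) and without *b6/b6* mice 6 and 12 (-0.56, *P* = 0.0109), but not without the 8 libraries (-0.78, *P* = 0.00343). Late activity-regulated neuronal genes, such as *Scg2* and *Nptx1*, gave 0 calls of 12 tested. Among 32 upstream kinases and transcription factors, *Mkl1*, an SRF coactivator, was lower in *cast/cast* mice (log2 fold change -0.64, *P* = 0.00964, adjusted *P* = 0.485 in limma). This call ended with total kcal as a covariate (-0.20, *P* = 0.456), without *b6/b6* mice 6 and 12 (-0.48, *P* = 0.0381) and without the 8 libraries (-0.51, *P* = 0.0301). Together 2 of these 86 genes (2.33%) met the criteria, compared to 1.49% of all genes. An adjusted *P* of 0.05 or lower was found for 0 of the 86 and for 0.572% of all genes.

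Intake within genotype was examined next, since mice of a genotype differed in kcal eaten. For total kcal 0 of the 10 genes had a slope with *P* of at most 0.01, compared to 1.74% of all genes. *Arc* had the highest mean slope, 0.45 on the log2 scale per 10 kcal (95% interval -0.16 to 1.07, *P* = 0.14). For C/P kcal 1 of the 10 genes passed, compared to 8.58% of all genes. This was *Fosb*, with a mean slope of 0.88 per 10 kcal (95% interval 0.41 to 1.35, *P* = 0.000708, adjusted *P* = 0.0497 in limma). Its slope was 1.43 in *b6/b6* (*P* = 0.0021) and 0.32 in *cast/cast* mice (*P* = 0.085), and the difference between them had *P* = 0.0222 (adjusted *P* = 0.151).

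The call of the *Fosb* slope held with a pseudocount of 5 (0.81, *P* = 0.000843) and after rescaling (0.83, *P* = 0.001). It also held without *b6/b6* mouse 6 (0.82, *P* = 0.000545), but not in several other alternatives. *b6/b6* mouse 12 had both the lowest C/P intake, 27.4 kcal, and the lowest *Fosb*, 18.5 normalized counts. Without it the slope kept its sign, at 0.58 (*P* = 0.0717), and the genes with a C/P slope fell from 1201 to 129 across the table. Without the 8 libraries the slope of *Fosb* was 0.23 (*P* = 0.294), and with all mice and both components as covariates it was 0.34 (*P* = 0.151). For study number, 0 of the 10 genes passed, compared to 0.85% of all genes. Differences between the slopes of the genotypes had *P* of at most 0.01 in 0 of the 10 genes for each measure, whereas they did in 5.19% of all genes for total kcal, 9.93% for C/P kcal and 2.89% for study number.

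**Figure D2:**
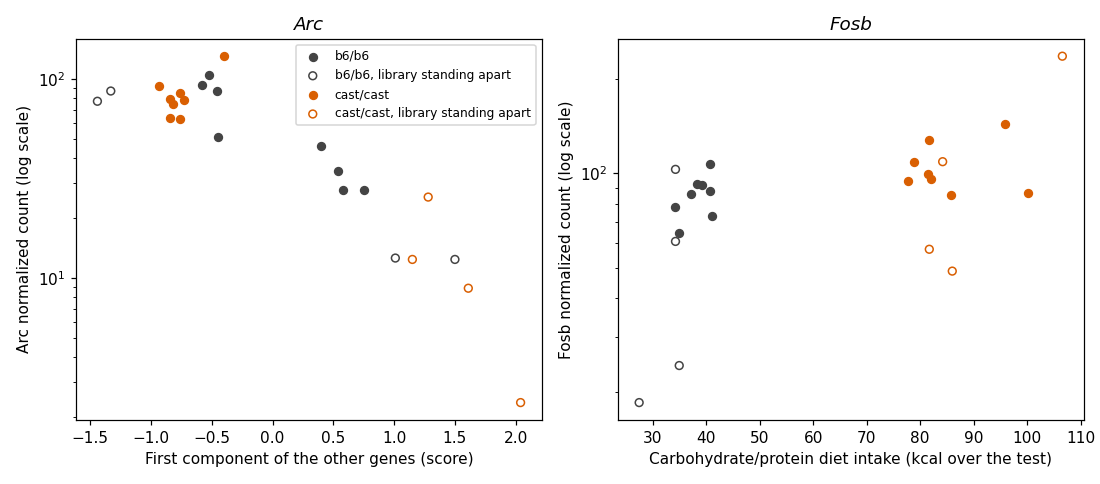
Left, *Arc* normalized counts (log axis) against the score of the first component of the other genes. Right, *Fosb* normalized counts (log axis) against C/P intake in kcal. Each point is a mouse, in grey for *b6/b6* and orange for *cast/cast*, and open circles are the libraries that stood apart. *Arc* falls along the component, and *b6/b6* mouse 12 lies at 27.4 kcal and 18.5 counts.

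Correlations between the 10 genes across mice were examined next. Of the 45 pairs of genes, centred within genotype, 26 had a positive correlation (57.8%, compared to 49.8% of pairs of other genes), and the median *r* was 0.15. An adjusted *P* of at most 0.05 over the 45 pairs was found for 11, of which 9 were positive and 2 negative (permutation test, two-sided, 100000 resamples). This count is no result about the list, as an absolute *r* over 0.5 was found for 11 of the 45 pairs (24.4%) and for 24.4% of the 67657528 pairs of other genes, whose median *r* was 0.00. The pairs below are given as a description. *Junb* and *Arc* rose and fell together (*r* = 0.83, *P* = 7e-05, adjusted *P* = 0.00157, Spearman rho = 0.72, *P* = 0.00016, permutation tests). This held within *b6/b6* (*r* = 0.63) and *cast/cast* mice (*r* = 0.91) and without the 2 mice farthest from the *Junb* median (*r* = 0.67). It was not called without the 8 libraries (*r* = 0.39, adjusted *P* = 0.518), where *Arc* had the narrower range of 27.8 to 130. *Arc* and *Dusp1* were likewise correlated (*r* = 0.81, *P* = 2e-05, adjusted *P* = 0.0009, rho = 0.71, *P* = 0.00031, permutation tests), at *r* = 0.45 within *b6/b6*, 0.94 within *cast/cast* mice and 0.66 without the 2 farthest mice. This pair was not called without the 8 libraries (*r* = 0.47, adjusted *P* = 0.343) or with the components below regressed out (*r* = 0.21, adjusted *P* = 0.527). *Ier2* ran opposite to *Arc* (*r* = -0.65, *P* = 0.00032, adjusted *P* = 0.0036, rho = -0.63, *P* = 0.0015, permutation tests), at -0.75 within *b6/b6*, -0.63 within *cast/cast* mice, -0.61 without the 2 farthest and -0.43 (adjusted *P* = 0.343) without the 8 libraries.

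These correlations moved with the components that the rest of the table shared. Of the other 11633 genes 52% had an absolute *r* over 0.5 with the first component and 29.7% with the second. *Arc* had *r* = -0.92 with the first component, *Egr1* and *Dusp1* -0.72, *Junb* -0.67 and *Ier2* 0.72, over 24 mice. *Fosb* and *Btg2* followed the second, at -0.69 and -0.60. Both components together held 91.0% of the variance of *Arc* within genotype, but 19.5% of that of *Fos* and 16.0% of that of *Nr4a1*. The origin of the components was not tested.

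With both components regressed out, 5 pairs had an adjusted *P* of at most 0.05, all positive, and 2 of these 5 were among the 11 found before. An absolute *r* over 0.5 was then found for 9 of the 45 pairs (20%) and for 7.17% of pairs of other genes. Of the 45 pairs 77.8% were positive, compared to 49.6% of other pairs, and the median *r* was 0.25, compared to 0.00. The 2 shared pairs were *Junb* with *Arc* (*r* = 0.58) and *Arc* with *Btg2* (*r* = 0.66). Both negative pairs were lost, *Arc* with *Ier2* being at -0.06. *Fosb* and *Egr1*, at -0.04 in all mice (*P* = 0.84, rho = 0.12, *P* = 0.575, permutation tests), were at 0.83 with the components removed and at 0.67 without the 2 mice farthest from the *Fosb* median. Their *r* was -0.72 within *b6/b6* and 0.82 within *cast/cast* mice, and the difference between these was not tested. Without the 8 libraries 2 pairs were called, *Fosb* with *Egr1* (*r* = 0.75) and *Arc* with *Btg2* (*r* = 0.79). The share among pairs of other genes was not computed in this setting, so this count is no result about the list.

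**Figure D3:**
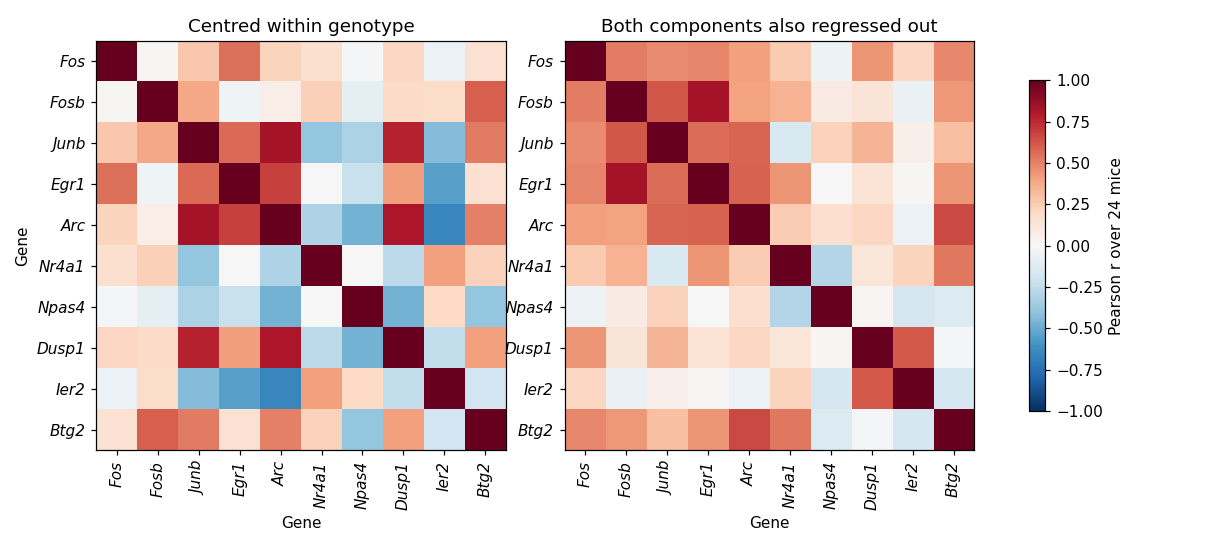
Pearson *r* over 24 mice for each pair of the 10 genes, from log2 values centred within genotype (left) and with both components also regressed out (right). Red is positive and blue negative. *Arc* with *Ier2* is at -0.65 on the left and -0.06 on the right, and *Fosb* with *Egr1* is at -0.04 on the left and 0.83 on the right.

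*Fos* was compared with the summed level of 12 marker lists. No list had an adjusted *P* of at most 0.05 over the 12. The lowest *P* was that of the thalamic markers (*r* = -0.45, *P* = 0.031, adjusted *P* = 0.302, rho = -0.37, *P* = 0.0741, permutation tests), with -0.29 without the 2 mice farthest from the *Fos* median. Most of this summed level was *Slc17a6* and *Calb2*, which hypothalamic neurons also express. *Tcf7l2*, a thalamic marker, was the only marker of 94 (1.06%) that met the criteria between genotypes, with medians of 87.6 normalized counts in the *cast/cast* group and 178 in *b6/b6* mice (log2 fold change -0.84, *P* = 0.0071, adjusted *P* = 0.449 in limma). It was not called with total kcal as a covariate (-0.65, *P* = 0.0866) but was without *b6/b6* mice 6 and 12 (-0.93, *P* = 0.00478) and without the 8 libraries (-1.12, *P* = 0.00176). Of the 8 thalamic markers 5 had a positive fold change, with a list median of 0.05. The part of *Tcf7l2* in the other results was not tested.

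The genes most like the list were found by correlation with the mean of the 10 standardized profiles, over 24 mice and 11985 other genes. The 10 highest were *St6galnac5* (*r* = 0.73), *Pcgf6* (0.70), *Sgpp2* (0.69), *Klhl21* (0.68), *Etv3* (0.67), *D430036J16Rik* (0.66), *Frmd4b*, *Atp5g3* and *Polr3e* (0.65 each) and *Fam65a* (0.64). Their own *r* with the first component lay between -0.66 and -0.37. As the highest of 11985 values over 24 mice, these *r* are a description, and whether they exceed those of unrelated genes was not tested. The median *r* was -0.04 for the further early transcription factors, 0.10 for early effectors, 0.13 for late genes and -0.13 for upstream kinases and transcription factors, compared to -0.02 for all genes.

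Promoter windows are shown for *Fos* and for the genes of the 3 correlated pairs, of 11, that had both sequences, *Fosb* with *Btg2*, *Junb* with *Dusp1* and *Junb* with *Btg2*. In this order their *r* was 0.60, 0.77 and 0.52 with all libraries, and 0.12, 0.25 and 0.30 without the 8 that stood apart. With both components regressed out it was 0.43, 0.34 and 0.30. None of the 3 pairs was called in either setting, and a link between sites and correlation was not tested. The RefSeq promoter table (GRCm38.p6) held 7 of the 10, *Fos*, *Fosb*, *Junb*, *Nr4a1*, *Npas4*, *Dusp1* and *Btg2*, and the 250 bases before each start were searched on both strands. The short CREB site TGACG was found in 7 of these 7 and in 17.8% of all 32851 promoters. The full site TGACGTCA, which contains the short site, was found in *Dusp1* and *Btg2* and in 1.55% of all. The CArG box bound by SRF was found in 0 of the 7 windows and in 1.47% of all. Bases farther upstream were not searched, and *Egr1*, *Arc* and *Ier2* had no sequence, so the 0 does not show that the genes lack this box. A match describes letters only. The windows are those of the reference build. *Dusp1* lies inside the CAST segment, and its CAST/EiJ sequence, carried by the *cast/cast* mice, was not examined. *Nr4a1*, with 4 short sites, and *Npas4*, with 2, also had windows, which are not printed. Also not printed are another short site of *Fos* (chr12:85473751-85473775) and a short site of *Dusp1* outside its full site (chr17:26508649-26508673). Capitals mark the short or full site in the following windows, each 5′ to 3′ on the strand of the gene.
Dusp1, chr17:26508598-26508625, minus strand: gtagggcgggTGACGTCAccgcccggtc
Btg2, chr1:134079304-134079331, minus strand: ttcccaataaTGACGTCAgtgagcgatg
Fos, chr12:85473814-85473838, plus strand: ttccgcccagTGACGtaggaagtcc
Fosb, chr7:19310091-19310115, minus strand: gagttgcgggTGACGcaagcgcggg
Junb, chr8:84978840-84978864, minus strand: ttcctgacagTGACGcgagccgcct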

How the data were processed

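The signal values deposited by the authors are tag hits per gene divided by a DESeq size factor for each library, with tags aligned to RefSeq mRNA and GRCm38. The deposited comparison columns hold the authors' fold changes and *P* values and were not used. The 19529 rows describe 13998 genes, and repeated rows held the same values and were used once. Every library had 1 step of which 100% of its values were whole multiples (tolerance 0.02), and dividing by it gave the tag hits used for edgeR 4.0.16 and DESeq2 1.42.0. No pair of libraries was close enough to be a duplicate (lowest chi-square per gene 14.7).

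All genes were tested with limma 3.58.1 (trend) in R 4.3.3, on log2(normalized count + 1), a scale that understates changes of low genes, with Benjamini-Hochberg adjustment over all genes. Slopes were fitted within each genotype and averaged, per 10 kcal or per 100 study numbers. Correlations used Python 3.11.15 and numpy 2.4.6, with values permuted within genotype. Components came from genes with a mean of at least 20. Genes named were the listed genes, from every other list the called genes and the 3 most abundant (of which a selection is printed), and the 10 most similar genes. *P* values of fits with the components as covariates are too small, since the components came from the same values centred within genotype. The genotype and slope fits and the pair correlations were checked on simulated data, and the other steps were not. The simulated counts for the fits varied independently between genes, without components shared across the table.

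The gene list and the other lists were chosen with earlier results of these data known. The alternatives tried were a pseudocount of 0.5 or 5, no minimum mean or one of 20, libraries rescaled to the same total, both count tests, no minimum ratio, study number or total kcal as a covariate, and, for pairs, values not centred within genotype or with study number regressed out. Fits leaving out libraries or using the components were added after the data were seen. Among them, 2 fits left out *cast/cast* mice 4, 5, 6 and 8 but kept *b6/b6* mice 1 and 4, which had like scores. These were run first, and the limits were then applied to both genotypes, because *Arc* followed the component used to choose the mice, a dependence that remains in the fit without 8 libraries. Genes absent from the table were not analysed here.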

Additional observations from a re-analysis of the deposited data

How the results depend on the processing

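Over the 11 alternatives that could move them, the fold changes of the 10 genes kept their direction in 89 of 110 cases. No minimum mean, a minimum of 20 and the components as covariates leave these fold changes as they are by construction. No gene of the list met the criteria in 11 of 14 settings, and the setting with no minimum mean changed no gene set, as the smallest mean was 6.03. Slopes kept their direction in 111 of the 140 cases that could move. The cause of the changes below was not tested.

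Genes called between genotypes numbered 208. They were 391 in edgeR and 395 in DESeq2 (adjusted *P* of at most 0.05 in 125 compared to 80), and 312 with study number, 96 with total kcal and 698 with both components as covariates (adjusted 1372). With no minimum ratio they were 285, with 0 genes of the list. Without the 8 libraries they were 511, with 1 gene of the list called (*Junb*), and without *b6/b6* mice 6 and 12 they were 137. Leaving out only *cast/cast* mice 4, 5, 6 and 8 gave 819 (adjusted 312) with 1 gene of the list (*Junb*), and leaving out these and *b6/b6* mice 6 and 12 gave 934 (adjusted 728) with 2 (*Junb* and *Arc*). Those 2 fits and the fit without the 8 libraries all removed the 4 *cast/cast* mice lowest in *Arc*, so each favours a higher *Arc* in *cast/cast* mice by construction, and the same holds for *Dusp1*. They also removed 3 of the 4 *cast/cast* mice lowest in *Junb*. Those 2 fits kept *b6/b6* mice 1 and 4, which were low in *Junb*, and so favour a higher *Junb* in *cast/cast* mice by construction. Early response genes called, 2 of 86, became 1 at a minimum mean of 20, 0 with total kcal or without *b6/b6* mice 6 and 12, 4 without the 8 libraries, 8 in each of those 2 fits, and 5 with the components. The share of calls that were higher in *cast/cast* mice was 31.7%, but 18.7% after rescaling, 15.3% in edgeR and 20.8% in DESeq2.

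Fold changes turned for *Arc* 0.11 and *Dusp1* 0.09 in edgeR, *Arc* 0.12 and *Dusp1* 0.09 in DESeq2, and *Egr1* 0.48, *Arc* 0.63, *Dusp1* 0.35 and *Ier2* -0.17 without the 8 libraries. Without *b6/b6* mice 6 and 12 they turned for *Egr1* 0.21, *Arc* 0.04 and *Ier2* -0.03. Without only *cast/cast* mice 4, 5, 6 and 8 they turned for *Egr1* 0.28, *Arc* 0.86, *Npas4* -0.14, *Dusp1* 0.48 and *Ier2* -0.18, and without these and *b6/b6* mice 6 and 12 for *Egr1* 0.52, *Arc* 1.03, *Npas4* -0.11, *Dusp1* 0.45 and *Ier2* -0.34.

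Genes with a C/P slope, 1201 with all libraries, were 121 without the 8, 288 with the components, 129 without *b6/b6* mouse 12 and 1164 without mouse 6. Those with a study number slope rose from 119 to 279 without the 8. Without the 8 libraries, total kcal slopes turned for *Fos* 0.07, *Fosb* -0.06, *Junb* -0.01, *Nr4a1* 0.07, *Npas4* 0.25 and *Dusp1* -0.12, C/P slopes for *Egr1* 0.38, *Npas4* 0.14, *Dusp1* -0.26, *Ier2* -0.75 and *Btg2* -0.10, and study number slopes for *Fosb* -0.01, *Junb* -0.02 and *Ier2* -0.01. With the components, total kcal slopes turned for *Fosb* -0.23, *Junb* -0.06, *Npas4* 0.15, *Dusp1* -0.14 and *Btg2* -0.13, C/P slopes for *Egr1* 0.18, *Dusp1* -0.25 and *Ier2* -0.46, and study number slopes for *Egr1* 0.08, *Arc* 0.05 and *Ier2* -0.05. After rescaling, C/P slopes turned for *Fos* -0.05 and *Dusp1* -0.01, and without *b6/b6* mouse 12 for *Egr1* 0.26 and *Ier2* -0.56, compared to -0.22 and 0.02 without mouse 6. Correlated pairs, 11 of 45, were 12 with a pseudocount of 5 and after rescaling, 10 not centred within genotype, 8 with study number regressed out, 2 without the 8 libraries and 5 with the components regressed out.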
